A study of Mus musculus with 2 samples.

Results

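The genes described here are 10 markers by which medium spiny neurons, the principal neurons of the striatum, are recognised. They were taken by name from a table of 23176 genes, and all 10 had a row in it. Messenger RNA was sequenced in a pair of mouse cell lines from embryonic day 14 striatum, of the mixed strain 129SvEv/CD1 and under passage 15. STHdhQ7 cells carry the Q7 form of huntingtin on both alleles (genotype HdhQ7/Q7). STHdhQ111 cells carry the Q111 form, with a longer CAG tract, on both (HdhQ111/Q111). Both lines were grown at 33 °C and held at 39 °C for 2 days before harvest to halt division, a step made possible by the temperature-sensitive large T antigen that immortalised them. The title of each sample names 3 replicates, but the table holds 1 combined value per line, so no spread between replicates can be given. Since each genotype is represented by 1 line, effects of huntingtin and of how the lines were derived and passaged cannot be told apart. Values are the authors' FPKM, which divides fragments by transcript length and library size, so they can be compared between genes. The depth of the libraries is unknown.

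Medium spiny neurons are GABA-releasing cells that receive dopamine from the midbrain and glutamate from the cortex, and they are the cells most affected in Huntington's disease. Those of the direct pathway carry the dopamine receptor Drd1 and make substance P (Tac1) and dynorphin (Pdyn). Those of the indirect pathway carry the dopamine receptor Drd2 and the adenosine receptor Adora2a and make enkephalin (Penk). Both kinds hold the phosphatase inhibitor Ppp1r1b, through which dopamine and cAMP control protein phosphorylation, and the transcription factors Bcl11b and Foxp1, while Foxp2 marks a large share of them.

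Of the 10 genes, 2 reached 1 FPKM in either line, and they were the same in both: the transcription factor Foxp1 and the enkephalin precursor Penk. Among all genes listed, 49.2% reached 1 FPKM in STHdhQ7, 48.8% in STHdhQ111 and 51.8% in either. Both of these genes were listed at more than 2 times their STHdhQ7 value in STHdhQ111 (2.39 for Foxp1 and 2.27 for Penk), and Foxp1 alone was called, meaning a q of 0.05 or less in the authors' deposited table. The other 8 genes lay between 0 and 0.182 FPKM in either line, and 4 of them were listed at 0 in at least 1 line. Their summed level was 0.51 FPKM in STHdhQ7 and 0.381 FPKM in STHdhQ111. In bulk RNA, fewer cells that express a gene and less RNA per cell cannot be told apart.

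**Figure D1:**
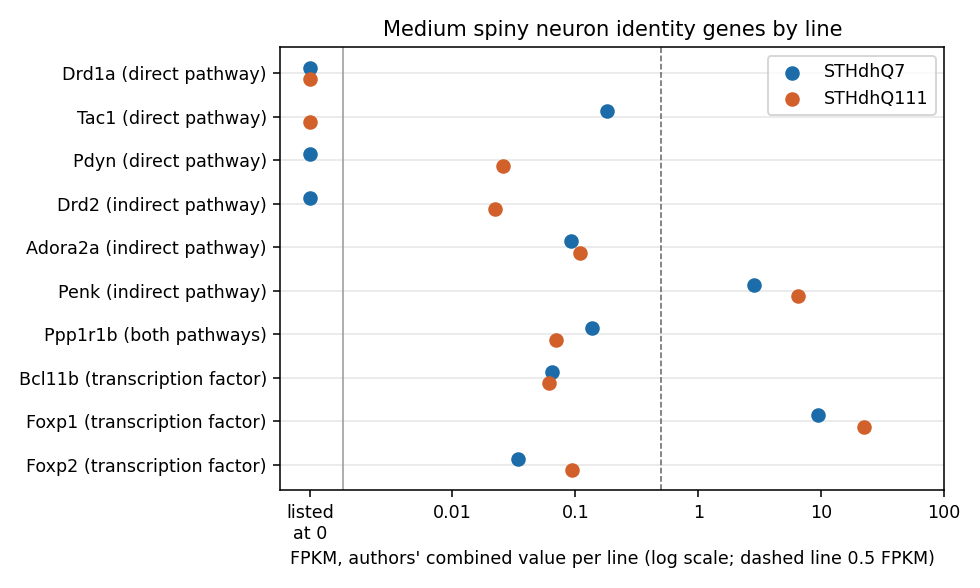
FPKM of the 10 identity genes in STHdhQ7 (blue) and STHdhQ111 (orange), 1 combined value per line, on a log axis with genes listed at 0 in a strip at the left. Foxp1 (9.35 and 22.4 FPKM) and Penk (2.85 and 6.49 FPKM) lie to the right of the dashed line at 0.5 FPKM, and the other 8 genes lie to the left of it in both lines.

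None of these 8 genes had a test by the authors. Every one of the 10372 genes under 0.5 FPKM in both lines was without a test, and the lowest value of the higher line among tested genes was 0.505 FPKM. Of all genes 55% had a test, against 2 of these 10. Differences between the lines among the untested genes are therefore descriptions of 1 value against 1 value.

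None of the 3 direct-pathway genes had a test, and each was listed at 0 in at least 1 line. The dopamine receptor gene Drd1, which the table names by its older symbol Drd1a (chromosome 13, 54146553 to 54151027 on the mm9 build, as are all loci here), was listed at 0 FPKM in both lines. In all, 19.6% of the genes in the table were listed at 0 in both. The substance P precursor Tac1 (chromosome 6, 7505071 to 7512973) had 0.182 FPKM in STHdhQ7, and STHdhQ111 was listed at 0. It was the highest of the untested genes in STHdhQ7, and 42.4% of all genes lay below it there. The authors' deposited table gives Tac1 a p of 0.0323 but marks it as not tested. The dynorphin precursor Pdyn (chromosome 2, 129513737 to 129515604) had 0.0259 FPKM in STHdhQ111 and was listed at 0 in the other line. The Pdyn locus of the table spans 1868 bases, 14% of the 13390 bases of the gene in RefSeq (GRCm38.p6, used for its length only), so fragments from the rest of the gene may not be in its value.

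Of the indirect-pathway genes, the enkephalin precursor was present while both receptors were near 0. Penk (chromosome 4, 4060683 to 4065592) had 2.85 FPKM in STHdhQ7 cells and 6.49 FPKM in STHdhQ111 cells, above 57.9% and 67.4% of all genes. The authors' deposited table gives Penk a log2 fold change of 1.19, and the standard error it implies was 0.59 (95% interval 0.03 to 2.34, Cuffdiff p = 0.0437, q = 0.215), and it was not called. The interval reaches from almost no difference to more than a 4-fold one, so the difference in Penk is not settled by these libraries. The error is wider than for genes at a like level: tested genes with a mean of 4 to 6 FPKM had a median implied standard error of 0.48. The dopamine receptor gene Drd2 (chromosome 9, 49148767 to 49215319) had 0.0221 FPKM in STHdhQ111 and was listed at 0 in STHdhQ7. The adenosine receptor gene Adora2a (chromosome 10, 74779688 to 74797533) was listed at 0.0929 and 0.108 FPKM, nearly level between the lines. Penk thus stood at 2.85 FPKM or more in lines where neither receptor gene of the same cells exceeded 0.108 FPKM.

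Ppp1r1b, the phosphatase inhibitor of both pathways (chromosome 11, 98210052 to 98219597), had 0.136 FPKM in STHdhQ7 cells and 0.0698 FPKM in STHdhQ111 cells. Its locus has the same bounds as that of the transcript 1700003D09Rik, and the library method is not described as marking strand, so reads where the genes overlap cannot be told apart.

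Among the transcription factors, Foxp1 separated from Foxp2 and Bcl11b by a factor of more than 100. Foxp1, a forkhead repressor needed for the maturation of medium spiny neurons but also found in many other tissues, lies on chromosome 6 at 98875336 to 99385339. It rose from 9.35 FPKM in STHdhQ7 to 22.4 FPKM in STHdhQ111, and moved from above 71.6% of all genes to above 84.8%. For Foxp1 the authors' deposited table gives a log2 fold change of 1.26, with 0.42 as the implied standard error (95% interval 0.44 to 2.08, Cuffdiff q = 0.0224). The authors' test called 13.5% of the 12740 tested genes, 6.35% as higher and 7.17% as lower in STHdhQ111, so 1 call among the 2 tested identity genes carries little weight as a count. The change was small among called genes: 92.5% of the 1697 called genes with a fold change had a larger one.

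Foxp2, a close relative of Foxp1 (chromosome 6, 14851349 to 15391977), was listed at 0.0341 and 0.0942 FPKM. Bcl11b, a zinc finger factor that drives the differentiation of medium spiny neurons (chromosome 12, 109148613 to 109241624), was listed at 0.0648 and 0.061 FPKM, almost the same in the lines. In the wider families, Foxp4 was as abundant as Foxp1 in STHdhQ111, with 22.6 FPKM there against 24.2 FPKM in STHdhQ7, and was not called. Foxp3 (0.0144 and 0.0246 FPKM) and Bcl11a (0.0186 and 0.00872 FPKM) had no test. Of these 6 family members, Foxp1 and Foxp4 were thus the only ones above 0.1 FPKM in these lines.

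Within each line the order of the levels was Foxp1, then Penk, then the 8 low genes. Among those 8, Tac1, Ppp1r1b and Adora2a were highest in STHdhQ7, and Adora2a, Foxp2 and Ppp1r1b in STHdhQ111. Without replicate values, neighbours in this order cannot be said to differ. Foxp1 made up 73.6% of the summed level of the 10 genes in STHdhQ7 and 76.5% in STHdhQ111. The sum was 12.7 and 29.3 FPKM with Foxp1, and 3.36 and 6.87 FPKM without it.

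The starts of these genes differ in their content of CpG, the dinucleotide that carries DNA methylation in mammals, which the title of the series names as the subject of the wider study. RefSeq windows (GRCm38.p6) from 250 bases before to 50 after a start matched 6 of the 10 genes (Drd1, Drd2, Tac1, Pdyn, Bcl11b and Foxp1) with 10 windows, while Ppp1r1b, Adora2a, Penk and Foxp2 had no entry. Foxp1 has 3 such starts, 254478 and 238217 bases apart, and the table gives no value for each. The Foxp1 locus of the table spans 510004 bases, 85.4% of the 597405 bases of the gene in RefSeq, so its FPKM may not cover every start. They are printed because Foxp1 is the called gene and 1 of its starts has the highest CpG ratio of the 10 windows, with each CpG in capitals and the strand of the gene read from 5′ to 3′. Tac1 and Drd2 are printed for contrast, as genes at or near 0 FPKM whose windows hold many CpG.
Foxp1 start 1 (chr6:99520944-99521243, minus strand): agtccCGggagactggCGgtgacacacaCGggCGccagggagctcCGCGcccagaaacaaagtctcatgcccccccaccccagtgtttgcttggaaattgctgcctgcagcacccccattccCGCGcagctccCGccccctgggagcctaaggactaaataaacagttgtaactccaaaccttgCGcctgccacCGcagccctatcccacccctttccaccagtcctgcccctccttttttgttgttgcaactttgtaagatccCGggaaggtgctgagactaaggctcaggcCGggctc
Foxp1 start 2 (chr6:99266466-99266765, minus strand): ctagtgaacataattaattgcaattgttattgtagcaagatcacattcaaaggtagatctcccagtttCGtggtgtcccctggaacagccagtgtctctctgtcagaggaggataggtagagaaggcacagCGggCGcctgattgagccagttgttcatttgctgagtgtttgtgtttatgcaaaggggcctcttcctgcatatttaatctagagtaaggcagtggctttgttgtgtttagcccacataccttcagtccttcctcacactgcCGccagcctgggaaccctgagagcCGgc
Foxp1 start 3 (chr6:99028249-99028548, minus strand): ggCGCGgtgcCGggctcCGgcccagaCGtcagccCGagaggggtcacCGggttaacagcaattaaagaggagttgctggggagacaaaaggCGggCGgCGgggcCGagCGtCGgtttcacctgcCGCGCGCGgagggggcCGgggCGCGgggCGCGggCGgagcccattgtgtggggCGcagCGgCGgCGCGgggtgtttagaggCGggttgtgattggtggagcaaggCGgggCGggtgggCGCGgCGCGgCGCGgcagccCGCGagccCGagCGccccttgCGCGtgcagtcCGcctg
Tac1 (chr6:7554811-7555110, plus strand): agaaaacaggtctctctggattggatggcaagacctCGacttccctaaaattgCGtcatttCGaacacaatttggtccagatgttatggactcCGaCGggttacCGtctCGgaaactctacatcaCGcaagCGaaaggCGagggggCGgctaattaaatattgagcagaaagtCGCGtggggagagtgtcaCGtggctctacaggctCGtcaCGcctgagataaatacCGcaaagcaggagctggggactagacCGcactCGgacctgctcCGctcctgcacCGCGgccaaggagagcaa
Drd2 (chr9:49340153-49340452, plus strand): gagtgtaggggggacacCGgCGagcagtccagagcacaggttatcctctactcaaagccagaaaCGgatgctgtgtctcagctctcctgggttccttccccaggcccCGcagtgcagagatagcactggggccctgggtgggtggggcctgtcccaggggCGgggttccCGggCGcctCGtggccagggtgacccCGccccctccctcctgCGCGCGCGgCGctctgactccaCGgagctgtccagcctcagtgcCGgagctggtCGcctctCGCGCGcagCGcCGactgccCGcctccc

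Foxp1 start 3 holds 44 CpG, and its ratio of observed to expected CpG of 1.11 exceeds that of 98.2% of the 32841 windows in the RefSeq table. Foxp1 start 1 holds 13 CpG (ratio 0.50) and Foxp1 start 2 holds 5 (ratio 0.28), against a median of 7 CpG and a ratio of 0.38 over all windows. The Tac1 window holds 22 CpG (ratio 1.01) and the Drd2 window 23 (ratio 0.62). A ratio of 0.6 or more, a common mark of CpG islands, was found in 5 of the 10 windows of these genes and in 35.8% of all windows. Those 5 windows were 1 each of Drd1, Drd2, Tac1 and Bcl11b, which were under 0.2 FPKM, and Foxp1 start 3. The Bcl11b window reached that ratio (0.65) with 9 CpG, since its GC content of 43% is low. Methylation itself was not analysed here, and the values do not say which Foxp1 start was used. The motif TGACGTCA, the cAMP response element, was searched on both strands and occurred in 0 of the 10 windows and in 1.79% of all windows. Its core CGTCA, which TGACGTCA contains, occurred in 2 of the 10 (Tac1 and Foxp1 start 3) and in 20.8% of all. TATAAA occurred in 1 of the 10 (Bcl11b) and in 13.6% of all. These matches are descriptions of letters and not of bound sites.

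**Figure D2:**
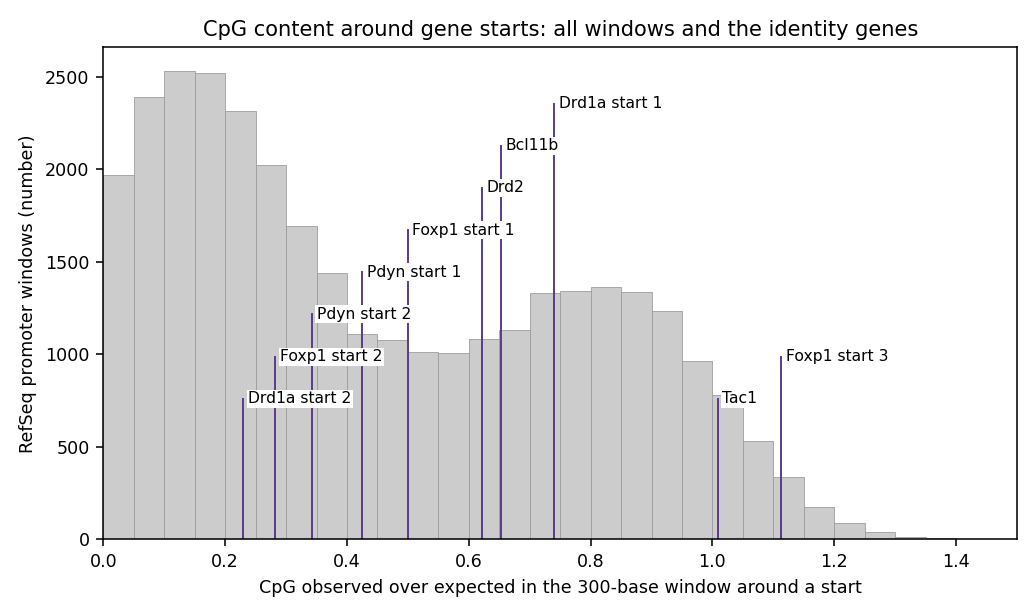
Histogram of the ratio of observed to expected CpG in the 300-base RefSeq promoter windows (x axis, ratio; y axis, number of windows), with a vertical line for each window of the identity genes, whose heights only separate the labels. Foxp1 start 3 (1.11) and Tac1 (1.01) lie at the right end and Drd1a start 2 (0.23) is the lowest of the lines.

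The neighbours of the present genes did not follow them as a block. Within 1 Mb of Foxp1 the table lists 6 genes, of which 3 had a test. Eif4e3, a cap-binding protein gene next to it (chromosome 6, 99575131 to 99616765), was called higher and rose from 0.735 to 3.38 FPKM. Mitf (2.06 and 1.69 FPKM) and Rybp (8.98 and 8.31 FPKM) were not called. Within 1 Mb of Penk, 7 of 14 genes had a test. The kinase gene Lyn (5.20 to 2.00 FPKM) and the zinc finger gene Plag1 (1.11 to 0.145 FPKM) were called lower, and the other 5 were not called.

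Most other genes enriched in medium spiny neurons were also at low level, but 9 of them reached 1 FPKM in either line. Of 34 such genes, 33 had a row, 20 of these were under 0.5 FPKM in both lines, and Drd3, Gpr6, Gpr83, Kcnip2 and Dgkb were listed at 0 in both. Among all 23176 genes, 10372 were under 0.5 FPKM in both lines and 19.6% were listed at 0 in both. The 13 with a test had 2 called higher, 2 called lower and 9 not called (30.8% called, beside 13.5% of all tested genes). Their median log2 ratio of (FPKM + 0.5) was -0.34, beside -0.05 over all tested genes. Over all 33 with a row the median was -0.037. Rgs4, a brake on G protein signalling, rose from 0.00652 to 1.15 FPKM, and Scn4b, a sodium channel subunit, from 0.384 to 1.25 FPKM. Pde1b, a calcium-activated phosphodiesterase, fell 11.6-fold from 11.7 to 1.01 FPKM. Rgs9, the regulator that shortens dopamine receptor signals in the striatum, fell from 0.629 to 0.0624 FPKM. Strn4 (10.2 and 9.29 FPKM) and Strn (7.82 and 6.45 FPKM) were the most abundant genes tested and not called. Next came the G protein subunit gene Gng7 (7.10 and 3.93 FPKM) and Rasd2 (2.88 and 1.69 FPKM). The striatal phosphodiesterase Pde10a (0.95 and 0.63 FPKM) and the G protein subunit gene Gnal (0.661 and 0.994 FPKM) were also tested and not called. The adenylyl cyclase Adcy5 (0.0529 and 0.232 FPKM) and the phosphatase Ptpn5 (0.0627 and 0.121 FPKM) had no test.

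**Figure D3:**
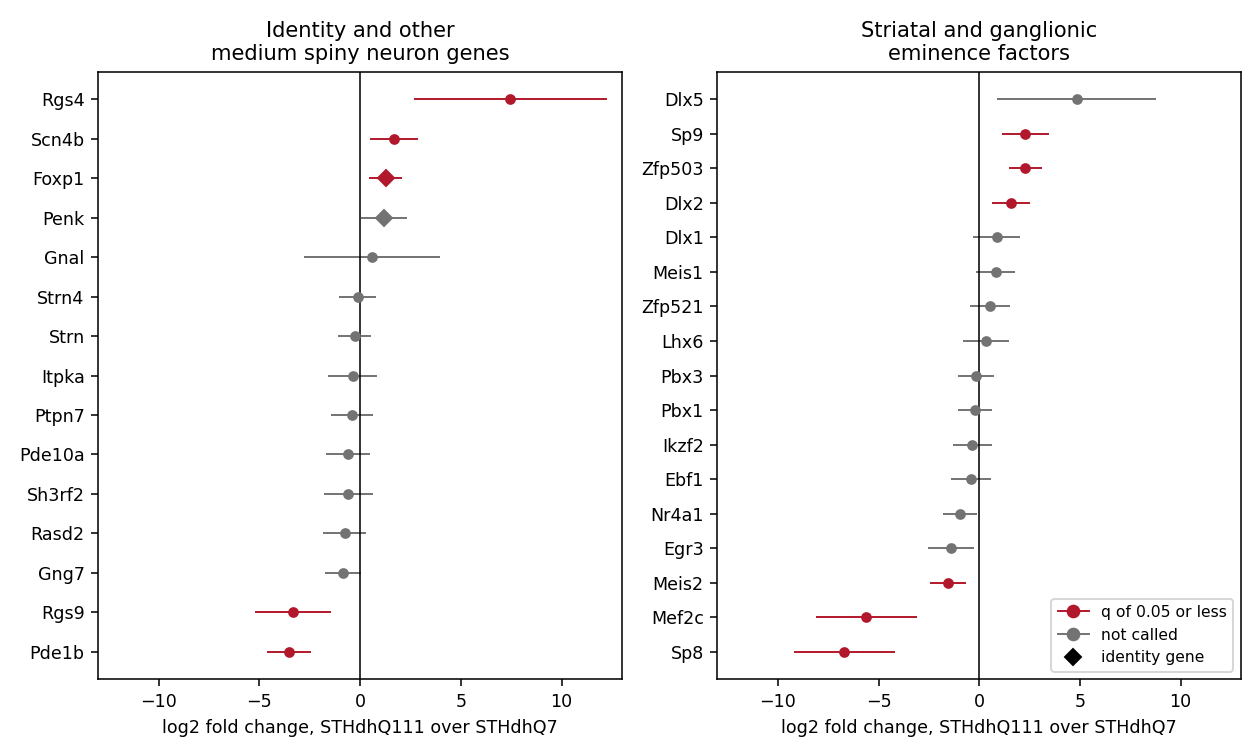
Log2 fold change, STHdhQ111 over STHdhQ7, in the authors' deposited table for tested identity genes (diamonds) with other medium spiny neuron genes (left) and for striatal and ganglionic eminence factors (right). Bars are 95% intervals from the implied standard error and red marks a q of 0.05 or less. Foxp1 (1.26) is red and clear of 0, Penk (1.19) is grey with an interval whose lower end is 0.03, and the other genes lie on both sides of 0.

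Factors that specify the striatum and its embryonic source, the ganglionic eminences, changed in both directions. Of 30 listed, 17 had a test, a share near that of all genes. Of these 17, 3 were called higher, 3 called lower and 11 not called (median log2 ratio -0.14). The called share was 35.3%, beside 13.5% of all tested genes, and the difference in share was not tested. Zfp503, a zinc finger factor of the developing striatum, rose 4.89-fold from 10.2 to 49.9 FPKM. Sp9 rose from 0.62 to 3.04 FPKM and its relative Sp8 fell from 3.60 to 0.0347 FPKM. Dlx2 (1.94 to 5.73 FPKM) was the other called higher, and Meis2 (17.9 to 6.16 FPKM) and Mef2c (1.56 to 0.0321 FPKM) were the others called lower. Ebf1, a factor of direct-pathway neurons, had 4.23 FPKM in STHdhQ7, 3.19 FPKM in STHdhQ111 and no call. Isl1 and Gsx2, which act in the same lineage, were listed at 0 in both lines, as was Hes5. Proteins known to work with Foxp and Bcl11b factors were abundant: 25 of 27 had a test. Of these 25, 12% were called, near the share of all tested genes, and 22 were not called (median log2 ratio -0.19). Chd3, a chromatin remodeller of the NuRD complex, rose from 5.20 to 31.6 FPKM, while the nuclear receptors Nr2f1 (42.6 to 0.165 FPKM) and Nr2f2 (38.4 to 7.28 FPKM) fell.

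The general signalling machinery downstream of the dopamine and adenosine receptors was mostly present in both lines. The list held 37 genes of G proteins, adenylyl cyclases, protein kinase A, phosphatases and phosphodiesterases. Of these 37, 35 had a test and 0 were called by Cuffdiff, beside 13.5% of all tested genes. An unadjusted p under 0.05 was given to 1 of them. Their median log2 ratio was -0.16 and their median level 19.4 FPKM in STHdhQ7 and 18.97 FPKM in STHdhQ111. Ppp1ca, the catalytic subunit of the phosphatase that Ppp1r1b inhibits, had 226 and 184 FPKM. The stimulatory G protein gene Gnas had 610.1 and 574.8 FPKM. The receptors showed the opposite: of 17 peptide, dopamine, adenosine and cannabinoid receptor genes, 15 were under 0.5 FPKM in both lines. Drd1a, Drd3, Drd5 and Adora3 were listed at 0 in both. The 17 are not a separate set: Drd1a, Drd2 and Adora2a are identity genes. Drd3, Oprm1 and Cnr1 are also among the other medium spiny neuron genes. The 2 with a test, Adora2b (2.32 and 3.23 FPKM) and Adora1 (0.516 and 0.0509 FPKM), gave 0 calls, with 1 at an unadjusted p under 0.05.

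Genes of the processing and release of peptides such as those from Penk, enzymes together with granins and other granule proteins, were split by level. Of 18 listed, 10 had a test, with 1 called higher, 1 called lower and 8 not called (median log2 ratio -0.17). The called share was 20%, beside 13.5% of all tested genes. The convertase Pcsk6 rose from 6.38 to 17.4 FPKM, and Pam, which amidates peptide ends as in substance P, fell from 121.7 to 55.3 FPKM. Carboxypeptidase E (Cpe), which trims enkephalin, was abundant and level at 370.8 and 381.3 FPKM, and Furin was listed at 30.3 and 25.4 FPKM. Also in this list, Ctsl had 288 and 267 FPKM and Pcsk7 had 10.1 and 8.74 FPKM, and neither was called. The Pcsk7 locus has the same bounds as that of Tagln (45.3 and 37.5 FPKM), so any reads where these genes overlap cannot be told apart. The convertases of neuronal secretory granules that cut the enkephalin and dynorphin precursors were not present at such levels: Pcsk2 was listed at 0 in both lines, and Pcsk1 at 0 in STHdhQ111 with 0.00767 FPKM in STHdhQ7.

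**Figure D4:**
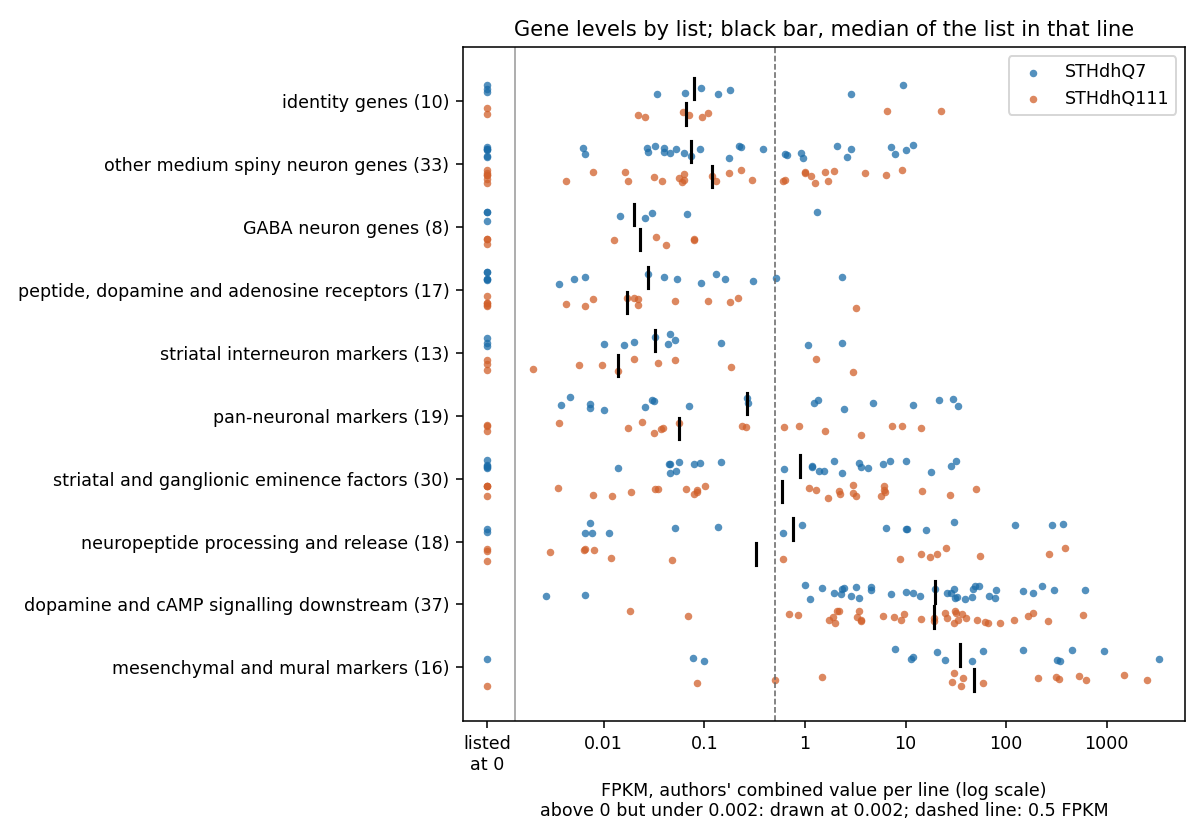
FPKM of each gene in 10 lists (number of genes with a row in brackets) in STHdhQ7 (blue) and STHdhQ111 (orange), on a log axis with genes listed at 0 at the left, and a black bar at the median of the list in that line. The identity genes and receptors sit mostly left of 0.5 FPKM, while the dopamine and cAMP signalling genes (median 19.4 and 18.97 FPKM) and the mesenchymal markers (35.1 and 48.2 FPKM) sit mostly right of it.

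The labelled origin of the lines is embryonic striatum, and the markers of GABA neurons and interneurons were mostly low, while pan-neuronal markers were mixed. Of 8 genes of GABA neurons, 7 were under 0.5 FPKM in both lines, among them the synthesising enzymes Gad1 (0.0257 and 0.0334 FPKM) and Gad2 (0.0679 and 0.0788 FPKM), and the vesicular transporter Slc32a1 was listed at 0 in both. The catabolic enzyme Abat was the only one tested and fell from 1.31 to 0.0784 FPKM. Of 19 pan-neuronal markers with a row, 11 were under 0.5 FPKM in both lines, and 8 reached 1 FPKM in STHdhQ7 and 5 in STHdhQ111. Of the 8 tested, 4 (50%) were called lower, beside 7.17% of all tested genes. These were Stmn2 (33.5 to 0.0563 FPKM), Ncam1 (29.8 to 9.32 FPKM), Uchl1 (21.6 to 7.35 FPKM) and L1cam (4.80 to 1.6 FPKM). The other 4 were not called and went both ways. The enolase Eno2 (11.9 and 14.1 FPKM) and Tubb3 (2.42 and 3.62 FPKM) were listed higher in STHdhQ111. Gap43 (1.34 and 0.869 FPKM) and Syn1 (1.22 and 0.615 FPKM) were listed lower there. The median log2 ratio was -0.98 over the 8 tested and -0.023 over all 19. Interneuron markers were listed under 0.5 FPKM in both lines in 11 of 13 cases, the exceptions being Lhx6 (2.36 and 2.97 FPKM) and the choline transporter Slc5a7 (1.08 and 1.29 FPKM), neither of them called.

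Mesenchymal and mural markers were at the other end of the scale. Of 16, 13 reached 1 FPKM in each line, and their summed level was 5689 FPKM in STHdhQ7 and 6177 FPKM in STHdhQ111, beside 12.7 and 29.3 FPKM for the 10 identity genes. Vim was the largest part of that sum, with 3303 FPKM in STHdhQ7 and 2483 FPKM in STHdhQ111, and was not called. Col1a1 went the other way, with 452 and 1487 FPKM. Rgs5, a pericyte marker, was listed at 0 in STHdhQ7 and Thy1 at 0 in STHdhQ111. Of the 13 tested, 3 were called higher (Col1a1, Col1a2 and Snai2), 2 called lower (S100a4 and Postn) and 8 not called. The called share was 38.5%, beside 13.5% of all tested genes, and the median log2 ratio was 0.50. The summed level of these markers and the level of Foxp1 were both higher in STHdhQ111, although Vim was lower there. The part of the markers' source in the Foxp1 result was not tested.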

How the data were processed

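The analysis started from the authors' gene table for the 2 lines. The submitters' processing notes name the mm9 build, Cuffdiff, Cufflinks 2.0.2, TopHat 1.4.0 and Bowtie 0.12.7, and the options and annotation were not given in the sources used here. Per the file headers, the deposited table gives FPKM per line combined over replicates, a log2 fold change, a test statistic, and a p-value and q-value for each gene. The labels do not say whether the replicates were separate cultures, so the spread between them may be technical. The deposited p-values rest on Cuffdiff's own estimate of variance, whose options were not given. They cannot measure the spread between independently derived lines, since each genotype is 1 line.

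A normal two-sided tail of the statistic gave back each p-value to within 2.7e-06, so dividing the log2 fold change by it gave the implied standard error. It had a median of 0.44 over tested genes. Tested means the status OK (12740 of 23176 genes), and called means a q of 0.05 or less. No test of the present work was possible. Lists were described by counts and the median log2 ratio of (FPKM + 0.5), which understates changes of low genes. Locus starts were raised by 1. The members and gene lists were chosen with earlier results of these data known. Every identity gene is named. From each list up to 6 called genes, the most abundant uncalled genes and absent defining markers could be named, and some others, such as neighbours and Drd receptors, were chosen after their values were seen. Calculations were tested on simulated data and used Python 3.11.15, numpy 2.4.6, pandas 2.3.3 and scipy 1.17.1.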

Additional observations from a re-analysis of the deposited data

How the results depend on the processing

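No paired analysis was possible because the table holds 1 value per line combined over replicates, and for the same reason no replicate could be left out. The single call among the identity genes, Foxp1, was lost at a q of 0.01 or less and with a Bonferroni adjustment over all tested genes, each giving 0 calls by Cuffdiff's p-values, while both tested genes had an unadjusted p under 0.05. It stayed at 1 with a q of 0.1 or less, with genes listed at 0 left out, with a 2-fold minimum and among genes of 1 FPKM or more. The q of 0.1 could only have added calls. The 2-fold minimum could not have removed Foxp1, since the smallest fold among called genes with a fold change was 2.03. At a level of 0.1 FPKM, 4 genes counted as present in STHdhQ7 and 3 in STHdhQ111, in place of 2 in each. With untested genes included, the median log2 ratio moved to -0.023 for pan-neuronal markers and to -0.12 for astrocyte markers. Of the 40 alternative log2 ratios of single identity genes, 1 moved by more than the median implied standard error (Tac1 with a pseudocount of 0.1 FPKM, -1.50 from -0.45), and of 32 alternative list medians only those 2 did. A filter on low values changes no ratio of a single gene and was not run for them. The unknown depth and the absence of tests under 0.5 FPKM limit what can be said of the 8 low genes.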

Other observations

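Markers of further cell types that embryonic forebrain tissue could hold were mostly low, with some genes of each list at higher levels. Few genes of each list had a test, and over all tested genes 13.5% were called. Of 11 astrocyte markers, 4 reached 1 FPKM in each line, and of the 5 tested Sparcl1 was called higher (0.11 to 0.623 FPKM), Aldoc lower (9.18 to 2.29 FPKM) and 3 were not called. The median log2 ratio was 0.75 over the 5 tested and -0.12 over all 11, so its sign rests on which genes enter. Aqp4 was listed at 0 in both lines. Gja1, a gap junction protein of astrocytes and fibroblasts, had 59.7 FPKM in STHdhQ7 and 103.1 FPKM in STHdhQ111 without a call. Also tested and not called were Aldh1l1 (10.4 and 9.29 FPKM) and Slc1a3 (2.79 and 5.04 FPKM). Of 11 oligodendrocyte lineage markers, 3 were tested and Pdgfra was called higher (3.34 to 9.28 FPKM). Cspg4 (16.4 and 10.5 FPKM) and Cnp (9.97 and 6.135 FPKM) were listed lower in STHdhQ111 and were not called. Olig1 and Olig2 were listed at 0 in both lines. Of 10 microglia and leukocyte markers, Cd68 was called higher (26.5 to 72.4 FPKM) and Tmem119 lower (22.3 to 6.28 FPKM), and the other 8 had no test. Of 8 endothelial markers, 3 were tested: Tek was called higher (0.386 to 1.46 FPKM), Flt1 lower (7.45 to 0.783 FPKM) and Vwf was not called.

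Of 14 cortical and glutamatergic markers, 11 were under 0.5 FPKM in both lines. The vesicular glutamate transporter Slc17a7 was called higher (0.697 to 3.13 FPKM), and the other 2 tested, Cux1 and Camk2a, were not called. Of 6 blood and muscle genes taken as genes the striatum should lack, 4 had no test. The muscle creatine kinase gene Ckm (0.171 and 0.548 FPKM) and the globin gene Hba-a1 (11.7 and 4.22 FPKM) were tested, giving 0 calls by Cuffdiff and 1 at an unadjusted p under 0.05. Hba-a1 has a near-identical copy, which makes its value uncertain. The blood and muscle genes had a median of 0.00948 FPKM in STHdhQ7 and 0.0714 FPKM in STHdhQ111, and the identity genes had medians of 0.0789 and 0.0654 FPKM.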
